A study of Saccharomyces cerevisiae with 6 samples.

Results

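The enzymes of histidine synthesis in budding yeast are encoded by 7 genes, HIS1 to HIS7, and all 7 were measured, among 5449 genes tested on the arrays. They were taken by name, as the complete set of genes that carry the HIS symbol of this pathway, and each was read by 1 probe set whose platform symbol is that name. The pathway, and the lists set beside it, were chosen with earlier results of these data known, so shares compared with all genes are not from an unselected set. The comparison is between cells lacking NPL3 and cells that carry it. Npl3 is an SR-like RNA-binding protein, also classed as an hnRNP, that binds nascent mRNA and takes part in its splicing and export. The values are log2 expression values as deposited, so a difference of 1 is a doubling.

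There were 6 arrays, each from a separate culture that the labels call a biological replicate: 3 of the npl3 deletion strain WNPL3B1-2B and 3 of the wild type strain W303-1A bar1Δ. The deletion strain is labelled npl3::KanMX. Both strains are labelled as haploid MATa cells with bar1ΔHphMX and with the alleles his3-11,15, trp1-1, ura3-1, ade2-1 and can1-100 and a leu2 allele of the same name, so HIS3 is, per the labels, a mutant marker gene in both genotypes. Each genotype is represented by 1 named strain, so any other difference between the strains cannot be told apart from the deletion. Cells were harvested in mid-log phase from rich glucose medium, named YPAD in the growth protocol and YPD elsewhere in the labels, and total RNA was copied into biotin-labelled cRNA.

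Histidine is built from ATP and phosphoribosyl pyrophosphate (PRPP). His1, the ATP phosphoribosyltransferase, carries out the first step and is inhibited by histidine. His4 is a single protein with several activities, which follow His1 and also complete the pathway at histidinol dehydrogenase. His6 is an isomerase, His7 a glutamine amidotransferase and cyclase that releases the purine precursor AICAR as a by-product, His3 the imidazoleglycerol-phosphate dehydratase, His5 the histidinol-phosphate aminotransferase and His2 the histidinol phosphatase. Gcn4 activates genes of many amino acid pathways when amino acids run short, HIS3 and HIS4 being the classical examples, and Bas1 with Pho2 ties HIS4 and HIS7 to the genes of adenine synthesis.

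Some measurements of the whole array set stand beside every result below. NPL3 itself was at 3.96 ± 0.14 in the deletion and 11.15 ± 0.35 in wild type (log2, mean ± SD, n = 3 arrays each), so a transcript that is absent per the labels read 3.96. Of the 6 genes tested from the strain labels other than HIS3, 3 fell and 2 rose, NPL3 and LEU2 among them. LEU2, labelled with the same allele in both strains, was at 8.51 ± 0.12 in the deletion and 2.85 ± 0.07 in wild type. Markers of the labelled mating type, 6 a-specific genes, had a median difference of -0.36, with 4 lower and none higher. For 4 alpha-specific genes the median was -0.07, with 2 lower and 1 higher. Beside these counts and those of the strain label genes, 28.9% of all genes tested were called lower and 32.9% higher. Among the a-specific genes without a call, STE2 was at 11.18 in the deletion and 11.14 in wild type. BAR1 is counted among the 6 and in their median, but is labelled as deleted in both strains and so is no marker here. It lay under the background level of 2.13 in both (the 95th percentile of probe sets whose symbols did not match the yeast reference table). The highest of the alpha-specific genes was SAG1, at 7.86 in the deletion and 7.38 in wild type. Across genes, which are not independent of each other, Pearson's r was 0.996 to 0.998 between arrays of 1 genotype and 0.956 to 0.961 between genotypes. Hybridization controls averaged 8.54 ± 0.62 in the deletion and 9.17 ± 0.08 in wild type, and labelling controls 4.82 ± 0.19 in the deletion and 4.18 ± 0.10 in wild type (exact permutation p = 0.1 for each, two-sided, n = 3 arrays each, the smallest p that 3 against 3 can give). Without npl3 deletion replicate 1 the hybridization controls differed by -0.28 in place of -0.63. The 5′ minus 3′ difference of 8 yeast control genes was higher in the deletion for all 8, by a median of 0.37. The part of these differences in the results was not tested.

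Transcript levels of the histidine pathway were lower in the deletion. Of the 7 genes, 6 fell (limma, Benjamini-Hochberg adjusted p under 0.05 over all 5449 genes) and HIS2 did not pass the test, while none rose. Among all genes tested 61.8% were called, 28.9% lower and 32.9% higher. For all 7 genes, HIS2 included, every deletion array was below every wild type array, an arrangement found for 32.5% of all genes. The median difference of the 7 was -0.44, deletion minus wild type, against 0.01 over all genes. A decrease of at least 1.5-fold was reached by 1 of the 7, HIS3, and by 8.66% of all genes. With HIS3 set aside as a mutant marker, 5 of 6 fell and the median was -0.37.

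**Figure D1:**
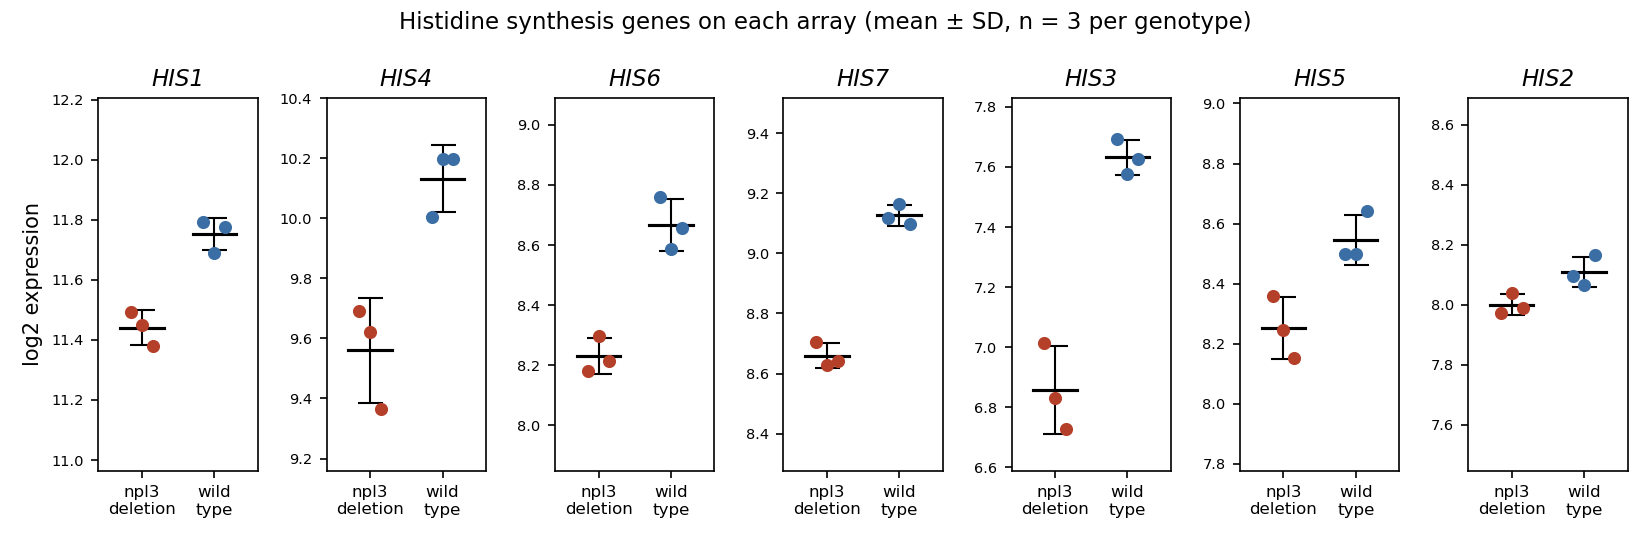
Log2 expression of the 7 histidine synthesis genes, in the order of the pathway, on the 3 npl3 deletion arrays (left in each panel, replicates 1 to 3 from left to right) and the 3 wild type arrays (right); lines and bars are the mean ± SD, and every panel spans the same log2 range around its own centre. No deletion array reaches a wild type array in any panel, and the gap is narrowest for HIS2 (0.03) and widest for HIS3 (0.56).

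HIS1 (YER055C, chromosome V), which opens the pathway, had log2 values of 11.49, 11.45 and 11.38 on the deletion arrays, against 11.79, 11.69 and 11.78 on the wild type arrays. The 2 sets were 0.20 apart at their closest, and the arrays spanned 0.11 within the deletion and 0.10 within wild type. HIS1 fell by 0.31 (SE 0.05, limma adjusted p = 0.00144), to 80.5% of the wild type level on the linear scale.

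HIS4 (YCL030C, chromosome III) stood at 9.69, 9.62 and 9.36 in the deletion and at 10.00, 10.20 and 10.20 in wild type. Npl3 deletion replicate 3 was the lowest of these arrays, and the spread within the deletion, 0.33, was the widest of the 7 genes. The groups were 0.31 apart, less than that spread but more than the 0.19 within wild type. HIS4 fell by 0.57 (SE 0.10, limma adjusted p = 0.00135), to 67.3% of wild type. Without npl3 deletion replicate 3 it fell by 0.47. The 95% interval of the full comparison was -0.79 to -0.35. It covers that value but rests on the same arrays, so this is no separate check.

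HIS6 (YIL020C, chromosome IX) and HIS7 (YBR248C, chromosome II) catalyse the neighbouring middle steps and changed by similar amounts. HIS6 was at 8.18, 8.30 and 8.21 in the deletion, against 8.76, 8.59 and 8.66 in wild type, and fell by 0.44 (SE 0.06, limma adjusted p = 0.000507), to 73.9% of wild type. HIS7 was at 8.71, 8.63 and 8.64 in the deletion, against 9.12, 9.16 and 9.10 in wild type. It fell by 0.47 (SE 0.05, limma adjusted p = 9.7e-05), to 72.3% of wild type. HIS7 had the narrowest spread of the 7 genes in wild type (0.07), and its groups were 0.39 apart.

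HIS3 (YOR202W, chromosome XV) had log2 values of 7.01, 6.83 and 6.73 in the deletion, against 7.69, 7.58 and 7.63 in wild type. All 3 deletion arrays were lower by 0.56 or more. The labels give both strains the same his3 alleles, but LEU2, also labelled alike in both, differed by 5.66 on the log2 scale, and whether the strains match at HIS3 was not tested. HIS3 fell by 0.78 (SE 0.08, limma adjusted p = 9.8e-05), to 58.4% of wild type, and only 5.76% of all genes had a lower difference. The probe set reads a transcript level, and neither the allele nor enzyme activity was measured.

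HIS5 (YIL116W, chromosome IX) was at 8.36, 8.25 and 8.15 in the deletion and at 8.50, 8.50 and 8.64 in wild type. It fell by 0.29 (SE 0.07, limma adjusted p = 0.00713), to 81.6% of wild type. Its groups were 0.139 apart, less than the spread within either genotype, 0.205 in the deletion and 0.144 in wild type. HIS2 (YFR025C, chromosome VI), whose product acts just before the last enzyme, was at 7.97, 8.04 and 7.99 in the deletion, against 8.10, 8.07 and 8.16 in wild type. The difference of -0.11 (SE 0.05, limma adjusted p = 0.0831) did not pass the test, with a 95% interval of -0.22 to 0.0034. The gap between the HIS2 groups was 0.03, less than the spread within either genotype, 0.07 in the deletion and 0.10 in wild type.

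The sizes of the differences did not follow the order of the steps. Ordered from the largest decrease, the genes were HIS3, HIS4, HIS7, HIS6, HIS1, HIS5 and HIS2. The 95% intervals of neighbours in this order overlapped in every case, so the order between neighbours is not settled. The interval of HIS3, -0.96 to -0.59, lay below those of HIS7 (-0.58 to -0.36), HIS6 (-0.58 to -0.30), HIS1 (-0.44 to -0.19), HIS5 (-0.45 to -0.13) and HIS2, and overlapped that of HIS4. The intervals of HIS4, HIS7 and HIS6 lay below that of HIS2. Differences between genes were not tested themselves. Tested against a fold of 1.2 rather than against no change (limma's treat), HIS3, HIS4, HIS6 and HIS7 were called, with adjusted p from 0.000966 to 0.0445, and HIS1 and HIS5 were not (adjusted p = 0.511 and 0.802). With array weights in the fit HIS2 was called as lower as well (adjusted p = 0.0461).

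**Figure D2:**
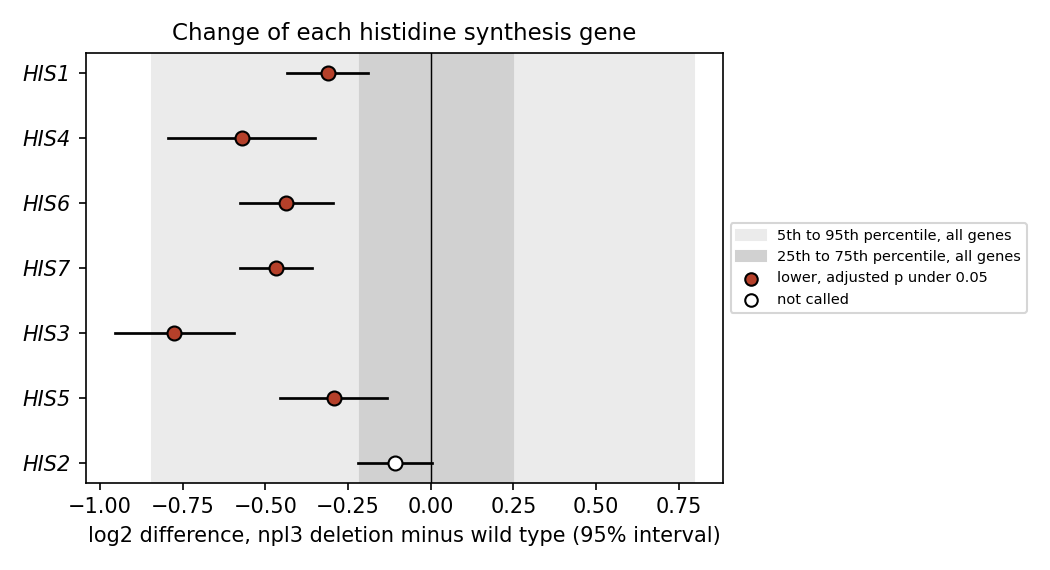
Log2 difference, npl3 deletion minus wild type, of each histidine synthesis gene with its 95% interval from limma, in the order of the pathway from top to bottom; filled points are called and the open point is not. The dark and light bands hold the central 50% and 90% of the differences of all 5449 genes (-0.21 to 0.25 and -0.84 to 0.80). All points except HIS2 lie to the left of the dark band, and none lies outside the light band.

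The deletion arrays also differed among themselves. Npl3 deletion replicate 3 was the lowest of the 3 for HIS1, HIS3, HIS4 and HIS5, 4 of 7 genes, against 36.1% of all genes. Npl3 deletion replicate 1 was the highest for 5 of 7, against 45.5% of all genes. Relative to the wild type mean, the 7 genes averaged -0.36, -0.41 and -0.50 on deletion replicates 1, 2 and 3. The wild type arrays averaged 0.00, -0.03 and 0.03, so the spread among the deletion arrays was smaller than the distance between the genotypes. Leaving out any single array left 6 of the 7 called.

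The genes lie on 6 chromosomes. Median differences of these chromosomes ran from -0.07 (chromosome V, with HIS1) to 0.05 (chromosomes III and XV, with HIS4 and HIS3). Chromosome I, whose 90 genes had a median of 0.83, carries none of the 7.

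Genes next to the HIS genes on their chromosomes did not share one direction. Of the 13 neighbours tested, 5 rose and 3 fell, 5 had no call, and the median difference was 0.01. Of all genes, 32.9% rose and 28.9% fell, also with a median of 0.01, so the neighbours as a set were near the whole array. HIS3 stands between MRM1, a mitochondrial rRNA methyltransferase gene, and DED1, an RNA helicase gene of translation. MRM1 was at 8.73 ± 0.04 in the deletion and 8.82 ± 0.10 in wild type, which did not pass the test (limma adjusted p = 0.263), and DED1 rose by 0.24 (SE 0.08, limma adjusted p = 0.0235). Its call ended without npl3 deletion replicate 1 (0.23, adjusted p = 0.067), npl3 deletion replicate 3 (0.24, adjusted p = 0.0658), wild type replicate 1 (0.18, adjusted p = 0.0558) and wild type replicate 3 (0.23, adjusted p = 0.0657), and with every probe set tested separately (adjusted p = 0.0765). That last setting fits and adjusts over all 10928 probe sets, matched or not, and the DED1 difference in it stayed at 0.24.

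Around HIS4, the ribosome assembly gene RRP7 rose by 0.26 (SE 0.05) and BIK1, a microtubule plus-end protein gene, fell by 0.35 (SE 0.06). HIS7 lies beside ARO4, an aromatic amino acid synthesis gene, which rose by 0.13 (SE 0.05, limma adjusted p = 0.0385). The ARO4 call ended with each array left out except npl3 deletion replicate 3: adjusted p was 0.0963 and 0.103 without npl3 deletion replicates 1 and 2, and 0.0685, 0.103 and 0.0617 without wild type replicates 1, 2 and 3, with differences of 0.11 to 0.15. It also ended with the replicate block (adjusted p = 0.0971) and with every probe set tested separately (adjusted p = 0.137). On the other side of HIS7, ENP1 differed by 0.13 and was not called, but was called without wild type replicate 1 (0.19, adjusted p = 0.0218) and with array weights (0.18, adjusted p = 0.0352). HIS6 adjoins RPB3, a gene of RNA polymerase II, at -0.02 and not called (0.0019 without wild type replicate 1), and FAF1, which rose by 0.24 (SE 0.07, 0.21 with adjusted p = 0.0526 without npl3 deletion replicate 3, and adjusted p = 0.053 with every probe set tested separately). HIS5 adjoins PRM5, a membrane protein gene, which rose by 0.60 (SE 0.05), and the nucleoporin gene NUP159 at 0.01, not called.

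At HIS1, the purine-cytosine permease gene FCY2 fell by 0.59 (SE 0.05). GIP2, on the other side, differed by -0.01 and was not called, with values of 0.09 without npl3 deletion replicate 2 and 0.12 without wild type replicate 3. At HIS2, LSB3 of the actin cortex fell by 0.53 (SE 0.06), more than the -0.11 of HIS2 itself. The other neighbour of HIS2 is a tRNA gene and was not tested.

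**Figure D3:**
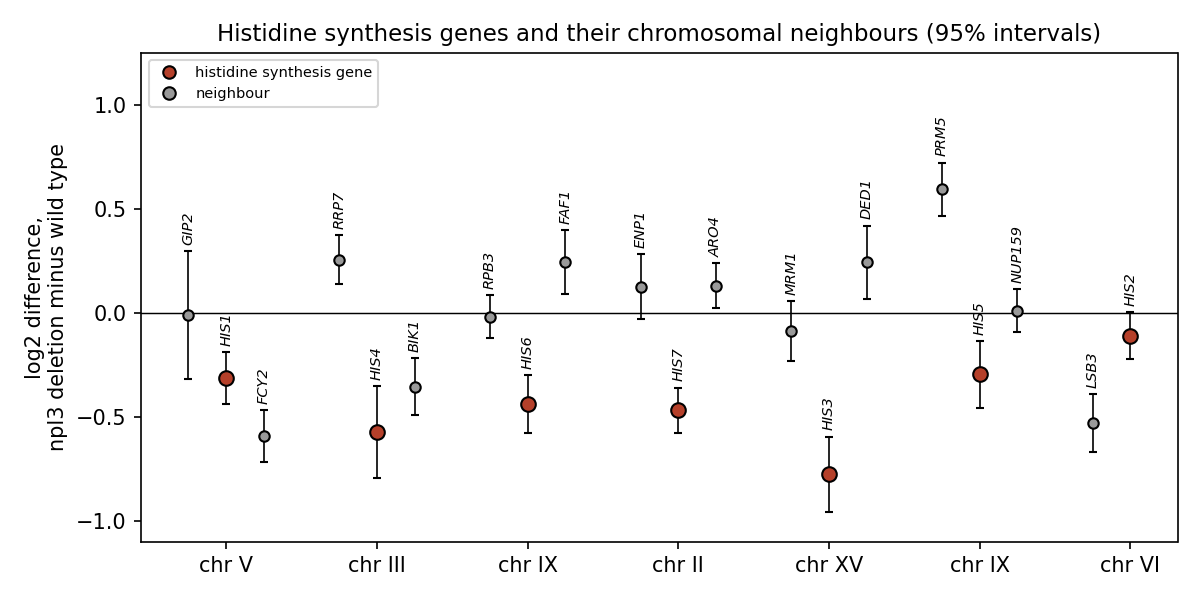
Log2 difference, npl3 deletion minus wild type, of the 7 histidine synthesis genes (large points) and of the genes directly beside them on the chromosome (small grey points), with 95% intervals. HIS3, HIS4, HIS5, HIS6 and HIS7 lie below both of their neighbours, with overlapping intervals for HIS4 and BIK1, while LSB3 lies below HIS2 and FCY2 below HIS1.

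The transporter genes listed for histidine uptake and use were lower, while HTS1, the listed gene of its use, was not called. Of the 5 genes listed, 4 fell (80%), against 28.9% of all genes, and the median difference was -0.64. HIP1, the high-affinity histidine permease gene, was at 9.17, 9.22 and 9.22 in the deletion, against 9.83, 9.90 and 9.82 in wild type, and fell by 0.64 (SE 0.05, limma adjusted p = 1.8e-05). All deletion arrays for HIP1 were below all wild type arrays. The general amino acid permease gene GAP1 fell by 2.10 (SE 0.09), the broad-range permease gene AGP1 fell by 1.23 (SE 0.09) and AVT1, a vacuolar amino acid transporter gene, fell by 0.34 (SE 0.04). HTS1, which encodes the histidyl-tRNA synthetase of cytosol and mitochondria, was at 11.13 ± 0.05 in the deletion and 11.14 ± 0.03 in wild type (SD, n = 3 arrays each). Its difference of -0.0049 (SE 0.05) did not pass the test (limma adjusted p = 0.937).

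Among 12 regulators of histidine synthesis genes, 4 fell and 3 rose, and the median difference was -0.02. Of all genes, 28.9% fell and 32.9% rose, so the mix of calls among the regulators was near that of the whole array. GCN4 was at 11.79, 11.81 and 11.86 in the deletion, against 12.25, 12.29 and 12.26 in wild type, and fell by 0.45 (SE 0.05, limma adjusted p = 0.000105). Its groups were well apart, but Gcn4 is controlled mainly in translation, which these values do not measure. GCN2, the kinase that senses uncharged tRNA upstream of Gcn4, fell by 0.44 (SE 0.05), and BAS1 fell by 0.61 (SE 0.07). ABF1, whose product binds the HIS7 promoter among many others, fell by 0.74 (SE 0.05). PHO2, the partner of BAS1, rose by 0.34 (SE 0.05), in the direction opposite to BAS1.

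GCN1, which works with the Gcn2 kinase, rose by 0.16 (SE 0.05, limma adjusted p = 0.0186), and GCR1, an activator best known at glycolytic genes, rose by 0.21 (SE 0.07, limma adjusted p = 0.0336). The call of GCN1 ended without npl3 deletion replicate 2 (0.14, adjusted p = 0.0651), wild type replicate 1 (0.14, adjusted p = 0.0502) and wild type replicate 3 (0.15, adjusted p = 0.0607). The call of GCR1 ended without each array except npl3 deletion replicate 2, with adjusted p = 0.0784 without npl3 deletion replicate 1 (0.14), 0.0749 without npl3 deletion replicate 3 (0.21) and 0.0695, 0.0682 and 0.0737 without wild type replicates 1, 2 and 3 (0.20 to 0.21). It also ended with the replicate block (adjusted p = 0.0554), and with every probe set tested separately GCN1 and GCR1 had adjusted p = 0.0795 and 0.103. RAP1, GCN20, GCN3, GCD7 and ASC1 were not called, with differences from -0.08 to 0.07.

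The supply of PRPP, the starting sugar phosphate, is set by 5 PRS genes, which moved in both directions. PRS2 fell by 0.43 (SE 0.04), PRS4 rose by 0.38 (SE 0.07) and PRS1 rose by 0.18 (SE 0.05; adjusted p = 0.0524 with every probe set tested separately), while PRS3 and PRS5 differed by 0.07 and -0.06 and were not called. Their median was 0.07. Of the 5, 1 fell and 2 rose, beside 28.9% and 32.9% of all genes.

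Of 35 other genes under Gcn4 control, most of them in amino acid metabolism, 22 fell and 5 rose, 8 had no call, and the median difference was -0.29. The share that fell was 62.9%, against 28.9% of all genes, and 32.9% of all genes rose. The largest falls were those of ARG4 of arginine synthesis (fell by 1.21, SE 0.06), HOM3, the aspartate kinase gene (fell by 0.71, SE 0.06), and ATG41, a gene of autophagy (fell by 0.69, SE 0.08). SNO1 and SNZ1, a gene pair of vitamin B6 synthesis, rose by 0.92 (SE 0.10) and 0.56 (SE 0.09), and LYS1 of lysine synthesis rose by 0.20 (SE 0.06, limma adjusted p = 0.0166). The call of LYS1 ended without npl3 deletion replicate 2 (0.17, adjusted p = 0.0604) and without wild type replicate 3 (0.18, adjusted p = 0.0551), and with every probe set tested separately (adjusted p = 0.0657). Npl3 deletion replicate 3 was the lowest deletion array for 24 of the 35 (68.6%), against 36.1% of all genes, and npl3 deletion replicate 1 was the highest for 8 of the 35 (22.9%), against 45.5% of all genes.

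The adenine regulon of Bas1 and Pho2 was split: of 14 genes tested, 7 fell and 5 rose, 2 had no call, and the median difference was -0.15. The share that fell was 50%, against 28.9% of all genes, and 32.9% of all genes rose. ADE16 and ADE17, which encode the enzymes that turn the AICAR released by His7 into inosine monophosphate, both fell. ADE17 was at 8.34, 8.29 and 8.01 in the deletion, against 8.97, 9.16 and 8.98 in wild type, and fell by 0.82 (SE 0.10, limma adjusted p = 0.000238). ADE16 was at 9.78, 9.70 and 9.64 in the deletion, against 10.22, 10.31 and 10.18 in wild type, and fell by 0.53 (SE 0.06, limma adjusted p = 0.000148). Both had all deletion arrays below all wild type arrays, as did 7 of the 14 genes of the regulon and 32.5% of all genes. Npl3 deletion replicate 3 was the lowest deletion array for 11 of the 14 (78.6%), against 36.1% of all genes. Npl3 deletion replicate 1 was the highest for 12 (85.7%), against 45.5% of all genes. GCV2 of glycine cleavage fell by 1.14 (SE 0.08). The largest rises were those of ADE1 (1.03, SE 0.04) and GCV3 (0.45, SE 0.06), both on chromosome I, and of ADE4 (0.33, SE 0.06), which encodes the first enzyme of purine synthesis. The 90 genes of chromosome I had a median difference of 0.83, and the part of this in the rises of ADE1 and GCV3 was not tested.

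**Figure D4:**
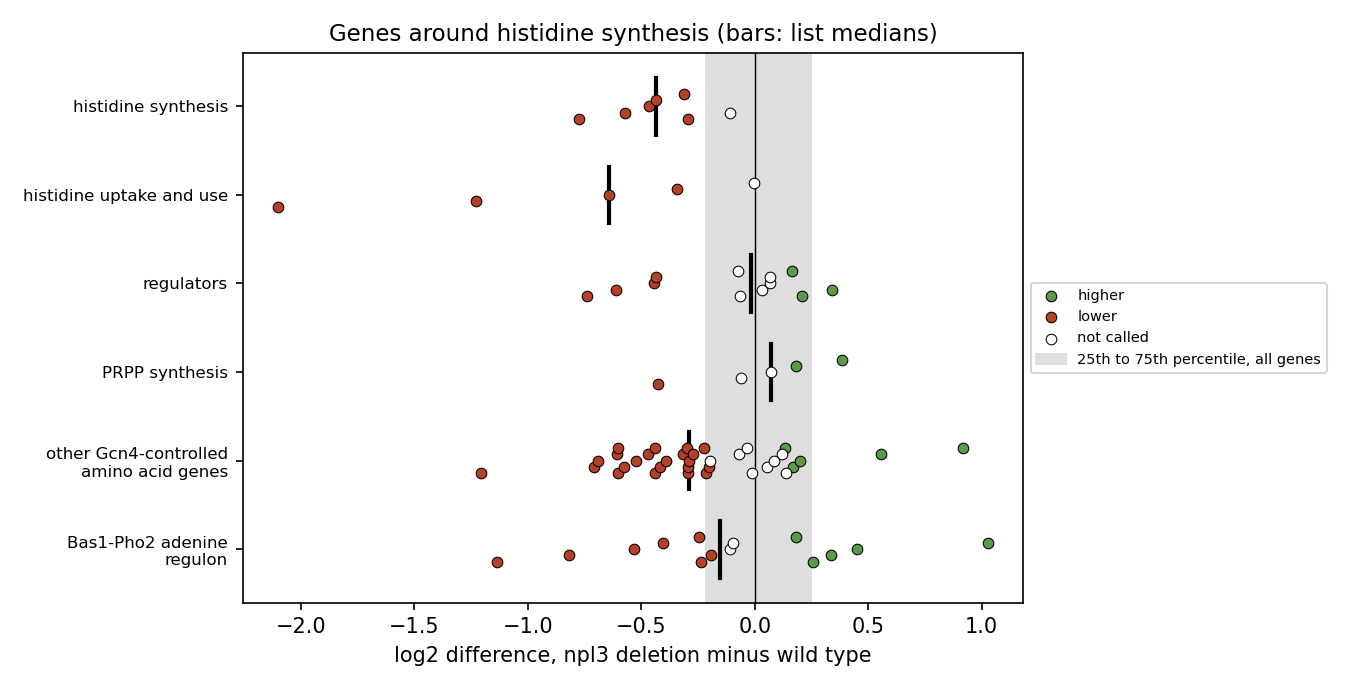
Log2 difference, npl3 deletion minus wild type, of every tested gene in 6 lists; each point is a gene, coloured by its call, vertical bars are list medians and the grey band holds the central 50% of all genes (-0.21 to 0.25). The medians stand at -0.44 for histidine synthesis, -0.64 for histidine uptake and use, -0.02 for regulators, 0.07 for PRPP synthesis, -0.29 for the other Gcn4-controlled genes and -0.15 for the adenine regulon.

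Likeness of pattern was measured as the root mean square distance between the log2 profiles of 2 genes over the 6 arrays, each profile centred on its own mean. Within the pathway the most alike pair was HIS1 and HIS5, at a distance of 0.06, and the least alike was HIS2 and HIS3, at 0.35. For none of the 7 was another HIS gene among the 3 most alike of all genes. Closest to HIS3 were PHM8, DAL7 and REC107 (0.05 each), and closest to HIS4 were PYK2 (0.04), MBF1 (0.05) and ENO1 (0.06). HOM2, URA3 and QCR6 (0.02 each) were closest to HIS1, VMA9 (0.02), TVP15 (0.03) and YHR127W (0.04) to HIS6, and SEN54, SSA2 (0.02 each) and CIR2 (0.03) to HIS7. DIA4 (0.02), YLR156W and YGR130C (0.03 each) were closest to HIS5, and MAD2, BUG1 and RME1 (0.02 each) to HIS2. The mean profile of the 6 genes without HIS3 was closest to AAT2, an aspartate aminotransferase gene, RAD50 and YRA1, at 0.02 each. These profiles are dominated by the step between the genotypes, with 3 arrays on each side, so many genes lie close to any one of them.

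The array also carries 6 probe sets with lower-case symbols that resemble these names (his1, his2, his3, his4, his5 and his7), which did not match the yeast reference table. All 1746 unmatched probe sets with 1 symbol have lower-case symbols and no matched one does, so these 6 were not read as the HIS genes. Their means over the 6 arrays were 1.32 to 2.01, and they belong to the probe sets from which the background level of 2.13 was set. Each of the 7 HIS probe sets was above that level on every array.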

How the data were processed

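The authors deposited a log2 expression value for each of 10928 probe sets on each array. Per the submitters' processing notes, RMA and limma were used, with no version or setting stated. Because RMA equalises arrays, a shift common to most genes is invisible in these values; array medians were 4.81 to 4.98. Of the probe sets, 7244 had 1 gene symbol, 1 had several and 3683 had none, and 5498 matched the R64 reference table by gene ID. The brightest probe set stood for each gene, giving 5449 genes.

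The npl3 deletion was set against wild type in limma 3.58.1 under R 4.3.3 (lmFit, eBayes, two-sided, no covariates, Benjamini-Hochberg over all 5449 genes). The p-values measure the spread between 3 cultures per genotype, and the number of arrays limits the precision. The procedure was tested on simulated data. Python 3.11.15, pandas 2.3.3 and matplotlib 3.10.9 were used for tables and figures. Genes named are the 7 members, called members of the small lists, the 3 largest rises and falls of the Gcn4 and Bas1-Pho2 lists, chromosomal neighbours, NPL3, LEU2 and the 3 genes most alike in profile. Members without a call, and STE2, BAR1 and SAG1, were named after their values were seen. The members and lists were chosen with earlier results of these data known. ARG5,6, ADE5,7 and TRP1 were not tested. No sequences were used here.

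The alternatives tried were leaving out each array, a replicate block, quantile normalization, median centring, 2 filters on dim genes, trend and robust eBayes, array weights, averaged or separate probe sets, and treat. With separate probe sets the adjustment ran over all 10928, those without a match included. Replicate numbers were not taken as pairs: deviations of same-numbered arrays correlated at -0.14, -0.07 and -0.19.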

Additional observations from a re-analysis of the deposited data

How the results depend on the processing

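The 6 lower HIS genes were 6 under 14 of the 16 alternatives, all 6 leave-one-out fits among them; array weights gave 7 and treat with a fold of 1.2 gave 4. All 7 differences stayed below 0 under all 16. The number of genes called over the whole array, 3369, was 1343 under treat, which asks for more than a 1.2-fold change, and 2630 to 3545 under the other alternatives. Among the other genes described as having risen or fallen, treat also ended the calls of AVT1, GCN1, PHO2, GCR1, PRS1, PRS4, LYS1, ADE4, DED1, RRP7, BIK1, FAF1 and ARO4. The replicate block gave 3035 genes and 6 HIS genes, and ended the calls of GCR1, ARO4 and RME1 (adjusted p = 0.0554, 0.0971 and 0.0833) among the genes named. Among genes not called, GIP2 (-0.01) changed sign without npl3 deletion replicate 2 and without wild type replicate 3, with a leave-one-out range of -0.10 to 0.12, and under quantile normalization (0.033), RPB3 (-0.02) without wild type replicate 1, with a leave-one-out range of -0.029 to 0.0019, and NUP159 (0.01) with array weights (-0.0053); the cause was not tested. No signal of the 7 genes was near background.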
